A study of Canis lupus familiaris with 17 samples.

Results

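Abcb1 was followed through 2 transcript entries, AF045016.1 and AB066299.1, out of 21571 transcripts measured in 16 RNA-seq libraries of MDCK cells, an epithelial line from dog kidney. They were chosen by name, as the Abcb1 entries of the reference set, after their difference between knockdown and control cells and between resistant and knockdown cells had been seen in these data. Those differences are therefore given as values without a test, and tests were kept for the comparison of resistant with control cells, for the level in experiment 3 against experiment 2 and for the ratio between the entries. AF045016.1 is named Abcb1a in the study's tables, whereas AB066299.1 carries no gene name in the tables used here and is taken as Abcb1 from its listing.

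All cells carried the pTR scribble shRNA, a short hairpin RNA against the polarity gene scribble (Scrib) that is expressed when tetracycline (TET) is added, and were cultured with blasticidin and G418. Control cells were this line without TET (6 libraries), and scribKD cells were the same line with 10 μg/ml TET (6 libraries). The scribRES cells, also with 10 μg/ml TET (4 libraries), were a single population of the line. This population had been derived by prolonged culture with TET and then expanded without it. The study calls it resistant because wild-type cells did not eliminate it in co-culture, and the word does not refer to drugs here. RNA was taken 67 h after 1300000 cells were plated, and the libraries came from 3 experiments, with 2 libraries per population in each and no scribRES cells in experiment 1. Since control cells received no TET, knockdown and TET cannot be told apart in any difference from control, and since scribRES is a single derived population its 4 libraries do not measure how far other resistant populations would vary. The study's text describes the experiments as its biological replicates but uses the libraries as replicates when it compares populations, and neither it nor the labels say how the libraries of an experiment were separated. The SDs and n given here count libraries, so the spread within an experiment may be largely technical, and p-values over libraries may be too small as tests over experiments.

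Abcb1 encodes P-glycoprotein, an ATP-driven pump of the plasma membrane that expels lipophilic compounds, many drugs among them. In kidney tubules, intestine and the blood-brain barrier it sits on the apical or luminal face of the cells and moves its substrates outwards. It is a well known cause of multidrug resistance in tumour cells, and MDCK monolayers are widely used to measure transport by it.

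The libraries held 12612664 to 54644201 reads on transcripts, recovered from the steps between the RPKM values (reads scaled to transcript length and to library depth). Scrib itself was at 28.9 ± 3.65 RPKM in control (SD, n = 6), 12.9 ± 2.69 in scribKD (n = 6) and 13.3 ± 1.23 in scribRES cells (n = 4). Of 17 kidney epithelium markers 7 had a name in the files. In control cells they ran from Cdh16 at 3.14 ± 2.49 RPKM to Krt19 at 1469 ± 299 RPKM, with Ocln at 33.5 ± 3.73 RPKM. The only fibroblast marker with a name, Dcn, and the only endothelial one, Vwf, averaged at most 0.0468 RPKM in any population, and no white blood cell marker had a name.

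In control cells Abcb1 was a low transcript. The AF045016.1 entry read 1.76 and 1.81 RPKM for the libraries of experiment 1, then 1.40 and 1.34 for experiment 2, then 0.442 and 0.521 for experiment 3, with a mean of 1.21 ± 0.596 RPKM (SD, n = 6). The AB066299.1 entry read 1.83 and 2.10 RPKM, then 1.21 and 1.35, then 0.541 and 0.661 for these experiments in turn, with a mean of 1.28 ± 0.619 RPKM (n = 6). Both entries were thus highest in experiment 1 and lowest in experiment 3 of the control cells, and the ranges of the experiments did not overlap. The lowest of these values, in control replicate 5, rested on 21 reads for each entry, and the exact 95% Poisson interval for AF045016.1 there was 0.274 to 0.676 RPKM, which covers counting error only. Among the 18186 transcripts above 0 RPKM in control cells on average, AF045016.1 ranked at the 28.8th percentile of RPKM and AB066299.1 at the 29.1st.

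In scribKD cells both entries were several times higher. AF045016.1 was at 8.19 and 11.3 RPKM in experiment 1, at 7.39 and 9.15 in experiment 2 and at 8.24 and 7.27 in experiment 3, with a mean of 8.59 ± 1.49 RPKM (n = 6) on 303 to 698 reads. AB066299.1 was at 8.08 and 11.8 RPKM, at 8.65 and 9.47, and at 8.38 and 7.25, with a mean of 8.94 ± 1.58 RPKM (n = 6) on 290 to 598 reads. All scribKD libraries lay above all control libraries, with a 4.02-fold gap between the nearest pair for AF045016.1 and a 3.45-fold gap for AB066299.1, a separation upwards that 5.09% of the 13358 transcripts in that comparison showed. On the log2(RPKM + 0.1) scale the difference of means was 2.87 for AF045016.1 (7.34-fold) and 2.83 for AB066299.1 (7.11-fold), the 6th and 7th highest differences of those 13358 transcripts. By mean RPKM AF045016.1 was at the 47.4th percentile and AB066299.1 at the 48.1st of the transcripts above 0, close to the middle.

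In scribRES cells, which had received the same TET as scribKD cells and held about as little Scrib transcript, the entries lay between the other populations. AF045016.1 was at 3.25 and 3.23 RPKM in experiment 2 and at 1.21 and 1.49 in experiment 3, with a mean of 2.30 ± 1.10 RPKM (n = 4) on 56 to 133 reads. AB066299.1 was at 2.93 and 3.04 RPKM and at 1.37 and 1.68, with a mean of 2.26 ± 0.854 RPKM (n = 4) on 52 to 98 reads. Every scribRES library lay below every scribKD library, by at least 2.23-fold for AF045016.1 and 2.38-fold for AB066299.1; 4.25% of the 13464 transcripts compared were separated downwards in this way. The difference of means from scribKD on the log2(RPKM + 0.1) scale was −1.97 for AF045016.1 (0.256-fold) and −1.998 for AB066299.1 (0.250-fold), the 12th and 10th lowest of those transcripts. In cell populations measured as bulk RNA, fewer cells with the transcript and less of it per cell cannot be told apart.

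**Figure D1:**
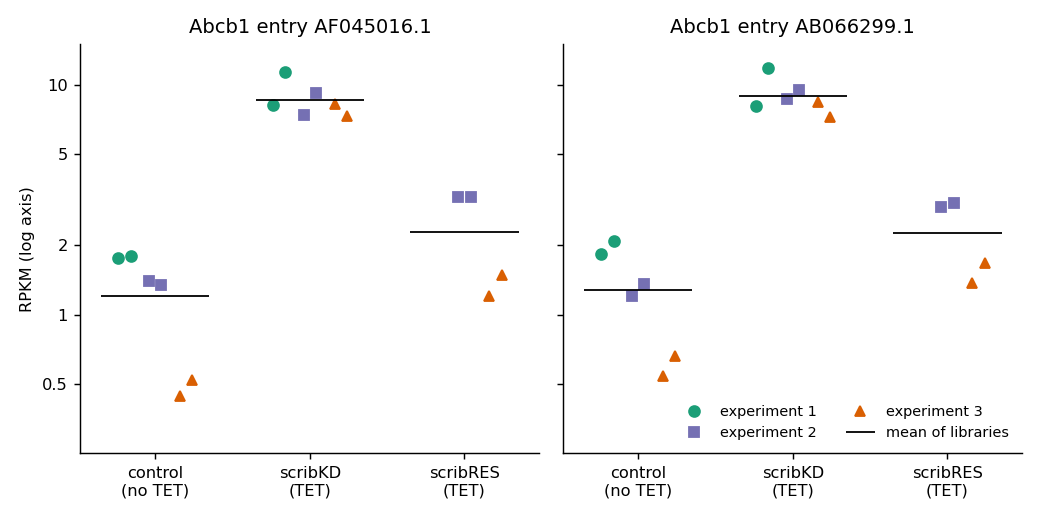
RPKM of AF045016.1 (left) and AB066299.1 (right) in every library on a log axis, by population on the x axis, with symbols by experiment and a line at the mean of each population. All 6 scribKD libraries sit between 7.25 and 11.8 RPKM, above every control and scribRES library, and within control and scribRES cells the libraries of experiment 3 lie lowest.

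The difference between scribRES and control cells was not itself used to choose the entries, and this comparison was tested. It shares its libraries with the comparisons that were used, so its p-values are not independent of that choice. The scribRES range of 1.21 to 3.25 RPKM for AF045016.1 overlapped the control range of 0.442 to 1.81, and likewise 1.37 to 3.04 overlapped 0.541 to 2.10 for AB066299.1. Over all libraries the log2 difference was 0.91 for AF045016.1 (SE 0.44, 95% interval −0.07 to 1.89) and 0.83 for AB066299.1 (SE 0.38, 95% interval −0.02 to 1.68). With limma and Benjamini-Hochberg adjustment over 13486 transcripts the adjusted p was 0.194 for AF045016.1 and 0.172 for AB066299.1, so that neither entry was among the transcripts called (7.57% of all tested, 4.15% as higher). The exact two-sided permutation test of each entry alone gave p = 0.129 for AF045016.1 and p = 0.0952 for AB066299.1, where 0.00476 was the smallest value possible.

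The comparison within experiments gave another picture. In experiment 2 the mean of the scribRES libraries was 2.37 times that of control for AF045016.1 and 2.33 times for AB066299.1, and in experiment 3 it was 2.81 and 2.54 times. Taken by same-numbered libraries, the 4 ratios ran from 2.33 to 2.86 for AF045016.1 and from 2.25 to 2.55 for AB066299.1. Both entries were thus higher in scribRES cells in all 4 pairs, as were 27.6% of the 13486 transcripts. Libraries with the same number share an experiment, and with the experiment as a block in the limma fit the log2 difference was 1.25 for AF045016.1 (SE 0.13, adjusted p = 0.000242) and 1.19 for AB066299.1 (adjusted p = 0.000387). Both entries were then called as higher, along with 11% of all transcripts tested, and they were also called with the replicate number as block (limma adjusted p = 0.00935 and 0.00973), along with 7.42% of all transcripts. These fits count the libraries of an experiment as separate replicates. With 1 mean for each population in each experiment, neither entry was called without a block (limma adjusted p = 0.627 for AF045016.1 and 0.62 for AB066299.1) or with the experiment as block (limma adjusted p = 0.241, 95% interval of the log2 difference 0.43 to 2.07, and 0.253, 0.39 to 1.99), and limma called no transcript in either of these fits, with 1311 and 2099 at an unadjusted p under 0.05. An exact permutation test restricted to exchanges within experiments 2 and 3, added after seeing the data, reached p = 0.0556 for each entry, which is the smallest it can give. Without a block the spread included the step between experiments and the experiment 1 controls, which were the highest and have no scribRES counterpart.

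The level of Abcb1 also varied with the experiment. Over the 12 libraries of experiments 2 and 3, with exchanges only within a population, the log2 level in experiment 3 was lower by 0.88 for AF045016.1 (exact permutation p = 0.0185) and by 0.71 for AB066299.1 (exact permutation p = 0.00926, the smallest possible). The libraries of an experiment are not independent of each other here, so this test compares these libraries and not experiments in general. In control cells AF045016.1 averaged 1.37 RPKM in experiment 2 and 0.482 in experiment 3, and AB066299.1 averaged 1.28 and 0.601. In scribRES cells the means were 3.24 and 1.35 RPKM for AF045016.1 and 2.99 and 1.53 for AB066299.1. In scribKD cells they lay closer together, at 8.27 and 7.75 RPKM for AF045016.1 and at 9.06 and 7.82 for AB066299.1.

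The ratios between populations, given here by experiment without a test, were not of 1 size. The scribKD mean was 5.46 times the control mean in experiment 1, 6.04 times in experiment 2 and 16.1 times in experiment 3 for AF045016.1, and 5.06, 7.06 and 13 times for AB066299.1. The scribKD mean was 2.55 times the scribRES mean in experiment 2 and 5.74 times in experiment 3 for AF045016.1, and 3.03 and 5.12 times for AB066299.1. As a share of the difference of scribKD from control in the same experiment, scribRES cells kept 27.2% in experiment 2 and 12% in experiment 3 of AF045016.1, and 21.9% and 12.9% of AB066299.1. Both ratios were thus highest in experiment 3, where the control and scribRES levels were lowest and rested on 21 to 77 reads per entry. What set the experiments apart was not tested; the labels give no more than their numbers.

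**Figure D2:**
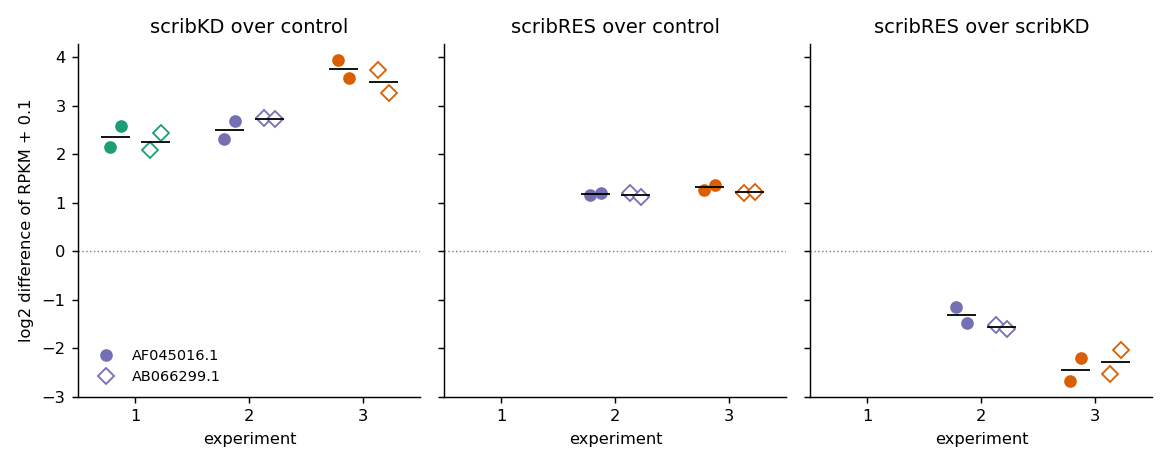
Log2 differences of RPKM + 0.1 between same-numbered libraries, for each pair of populations (panels) and experiment (x axis), with filled circles for AF045016.1, open diamonds for AB066299.1 and a line at the mean of each pair of libraries. The scribRES over control differences lie between 1.11 and 1.36 in experiments 2 and 3, while the scribKD over control differences reach 3.27 to 3.94 in experiment 3 and stay between 2.08 and 2.74 in the other experiments.

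The 2 entries agreed closely. The transcript lengths recovered from the RPKM steps were 2451 bases for AF045016.1 and 2005 bases for AB066299.1. The ratio of the RPKM of AB066299.1 to that of AF045016.1 ran from 0.867 to 1.27 over the 16 libraries with a median of 1.04, and AB066299.1 was the higher in 11 of them. On the log2 scale the ratio averaged 0.07 ± 0.15 (SD, n = 16), a spread far smaller than the differences between the populations. Across the 16 libraries Pearson's r of the log2 levels was 0.995, a description only, since the points share libraries and populations and follow the same differences.

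Over all libraries AF045016.1 held 3640 reads and AB066299.1 held 3094, or 45.9% of the sum, where AB066299.1 makes up 45.0% of the summed length. The 95% Wilson interval of this share contained the share of length in all 16 libraries, from 41.5% in control replicate 3 to 50.9% in control replicate 6. Chi-square for equal shares in all libraries was 8.15 on 15 degrees of freedom, below 1 per degree of freedom. The spread of the ratio between libraries was thus no larger than the counting of reads gives when each read falls on 1 entry only. Whether a read that matched both entries was counted for each is not given in the sources used here. Reads counted for both would draw the shares together and lower the chi-square, so the agreement may be partly built in. For this reason the entries were not treated as independent measurements of Abcb1 elsewhere.

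The ratio did not differ detectably between populations. The mean log2 ratio was 0.12 ± 0.20 in control (n = 6), 0.06 ± 0.09 in scribKD (n = 6) and 0.03 ± 0.17 in scribRES cells (n = 4). Exact two-sided permutation tests gave p = 0.489 for scribKD against control, p = 0.748 for scribRES against scribKD and p = 0.486 for scribRES against control, and 0.734, 0.748 and 0.734 after Benjamini-Hochberg adjustment over these 3 tests. Shifts of the ratio between −16.5% and 10.2%, between −14.1% and 11% and between −23.7% and 13.3% in turn were not refused by these tests at p under 0.05. Differences within these ranges were therefore not excluded. By experiment the mean log2 ratio was 0.08 in experiment 1 (n = 4), −0.03 in experiment 2 (n = 6) and 0.17 in experiment 3 (n = 6).

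**Figure D3:**
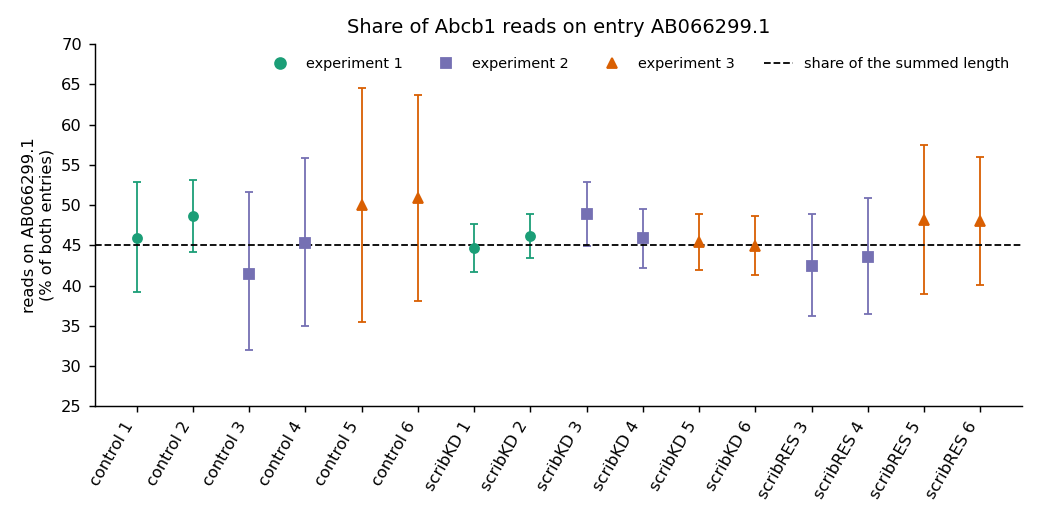
Reads on AB066299.1 as a percentage of the reads on both entries in each library, with 95% Wilson intervals for counting error, symbols by experiment and a dashed line at the share of AB066299.1 in the summed length. The line crosses all 16 intervals, which are widest in control replicates 5 and 6.

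Control replicate 2 had been sequenced in 2 runs, which gives a measure of the technical spread. AF045016.1 was at 1.77 RPKM in the first run and 1.84 in the second, on 126 and 116 reads, and AB066299.1 at 1.91 and 2.29, on 111 and 118 reads. These differences between runs were small beside the ranges among control libraries, 0.442 to 1.81 RPKM for AF045016.1 and 0.541 to 2.10 for AB066299.1. Those ranges include the step between experiments. Within experiment 1 the control libraries, at 1.76 and 1.81 RPKM for AF045016.1 and 1.83 and 2.10 for AB066299.1, lay closer together than the runs. Across transcripts the runs differed by a chi-square of 1.12 per transcript, near counting noise, and they were averaged and counted as 1 library. Between the 2 libraries of a population in an experiment the same measure was 1.73 and 2.44 in scribRES cells, 2.99 and 4.14 in scribKD and 5.87 and 6.03 in control cells for experiments 2 and 3, and in experiment 1 it was 25.3 in control (with the first run) and 26.2 in scribKD cells. The scribRES pairs thus lay closest to the repeat run and the pairs of experiment 1 farthest from it.

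Other ABC transporters with a name in the files gave a frame for these levels. Names were known for 9.17% of transcripts, most of them from the study's own tables of changed genes, so the named genes are a part of each family that leans towards changed transcripts. The same holds for the lists below, so the shares called there and over all transcripts are not like for like. Of 6 named members tested for scribKD over control, 1 was higher, 1 lower and 4 were not called, where 9.97% of all transcripts were called; the median log2 difference was 0.12, beside 0.02 for all transcripts tested. Abca1, which exports cholesterol and phospholipid, rose from 0.713 ± 0.345 RPKM (n = 6) to 1.59 ± 0.469 (n = 6), by 1.11 on the log2 scale (SE 0.29, limma adjusted p = 0.0178). Tap1, a subunit of the peptide transporter that loads MHC class I, fell from 39.8 ± 3.56 to 26.3 ± 2.47 RPKM, by 0.60 on the log2 scale (limma adjusted p = 0.000455).

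The other 4 family members were not called in this comparison without a block. Abcc5, an exporter of cyclic nucleotides, stood at 18.0 RPKM in control and 19.3 in scribKD cells, with a log2 difference of 0.10. Abcc2 and Abcc3, apical and basolateral exporters of drug conjugates, differed by 0.24 and −0.60 between these populations, with limma adjusted p = 0.833 and 0.142, and Abca16 by 0.13. With the experiment as block, where 15.1% of all transcripts were called, Abcc3 was also called as lower (limma adjusted p = 0.000108). Per length of transcript, Abcb1 at 8.59 RPKM by AF045016.1 was in the range of Abcc3 (5.83 RPKM) in scribKD cells, while in control cells Abcc3 stood at 9.20 RPKM and AF045016.1 at 1.21.

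In scribRES cells the order of Abca1 differed from that of Abcb1, with the highest mean in scribRES and not in scribKD cells. Abca1 was at 2.28 ± 0.274 RPKM in scribRES cells (n = 4), higher than control by 1.65 on the log2 scale (SE 0.31, limma adjusted p = 0.00836). Its difference from scribKD cells, 0.54, was not called without a block (limma adjusted p = 0.204) and was called with the experiment as block (limma adjusted p = 0.0398). None of the 6 family members was called for scribRES over scribKD in the limma fit without a block, in which 1.28% of all transcripts were called. With the experiment as block, where 9.64% of all transcripts were called, Abca1 and Tap1 were called as higher and Abcc2 as lower. For Tap1 the log2 difference was 0.48 without the block (limma adjusted p = 0.0426), short of the limit of 0.5, and 0.502 with it (limma adjusted p = 0.00918). Abcc2 stood at 3.78 ± 2.56 RPKM in control (n = 6), 3.90 ± 2.37 in scribKD (n = 6) and 1.92 ± 1.56 in scribRES cells (n = 4). Its log2 difference of scribRES from scribKD was −1.31 without the block (limma adjusted p = 0.328) and −1.83 with it (limma adjusted p = 0.0198), and that from control was −1.07 (limma adjusted p = 0.416) and −1.94 (limma adjusted p = 0.0136).

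**Figure D4:**
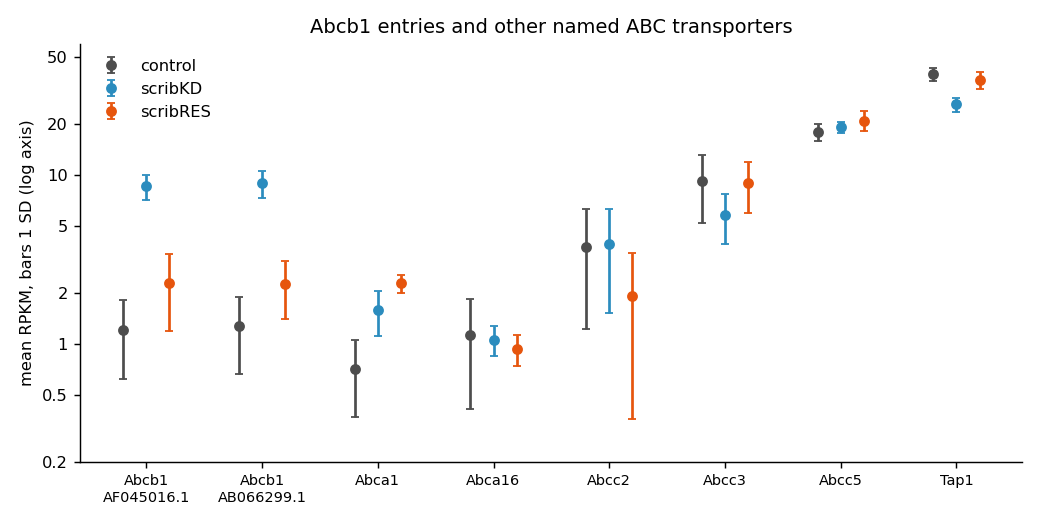
Mean RPKM on a log axis, with bars of 1 SD, of the Abcb1 entries and the 6 other named ABC transporters in control (n = 6), scribKD (n = 6) and scribRES cells (n = 4). The Abcb1 entries stand at 8.59 and 8.94 RPKM in scribKD cells and near 2.3 in scribRES cells, whereas the means of Abca16 and Abcc5 differ little between populations.

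Uptake carriers of drugs and nucleosides had 4 named members. For scribKD over control 2 of the 4 were lower and none higher, where 9.97% of all transcripts were called. Slc22a12, the urate exchanger of the tubule, fell from 9.50 ± 6.94 to 1.88 ± 0.613 RPKM, by 1.99 on the log2 scale (limma adjusted p = 0.00769), and Slc29a1, an equilibrative nucleoside transporter, fell from 15.5 ± 3.12 to 7.13 ± 1.52 RPKM, by 1.12 (limma adjusted p = 0.000406). For scribRES over control, where 7.57% of all transcripts were called, Slc29a1 was lower by 0.91 on the log2 scale (limma adjusted p = 0.0262) and Slco3a1, an organic anion carrier, higher by 0.51 (limma adjusted p = 0.0307). With the experiment as block, where 18.5% of all transcripts were called, Slco3a1 was not called (0.41) and Slc22a12 was called as lower, with a log2 difference of −1.21 without the block (limma adjusted p = 0.227) and −1.83 with it (limma adjusted p = 6.6e-05). The median log2 difference of this list was −0.72 for scribKD over control, beside 0.02 for all transcripts tested.

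Enzymes of drug metabolism and targets of NRF2, which often accompany efflux pumps in detoxification, had 9 tested transcripts. For scribKD over control 1 was higher, 2 were lower and 6 were not called, beside 9.97% of all transcripts called. The median log2 difference was −0.09, beside 0.02 for all transcripts tested. Nqo1, a quinone reductase, rose by 0.80 (SE 0.24, limma adjusted p = 0.0356) from 581 ± 73.4 to 1081 ± 429 RPKM. Gstt2, a glutathione transferase, fell by 1.54 (limma adjusted p = 3.92e-05), and Aldh1a1, a retinaldehyde dehydrogenase, fell by 1.20 (limma adjusted p = 0.0186). With the experiment as block, where 15.1% of all transcripts were called, both transcripts of Sult1a1, a phenol sulfotransferase, were called as lower too. Their log2 differences were −0.78 and −0.88. For scribRES over scribKD none was called without the block or with it, where 1.28% and 9.64% of all transcripts were called. For scribRES over control 2 were higher, 1 was lower and 6 were not called, beside 7.57% of all transcripts called. The median was −0.05, beside 0.03 for all transcripts tested. Hmox1, the inducible heme oxygenase, was higher in scribRES than in control cells by 0.62 (limma adjusted p = 0.00717), at 36.5 ± 4.05 against 23.7 ± 2.78 RPKM, with 35.1 ± 14.9 RPKM in scribKD cells. Nqo1 was higher by 0.73 (limma adjusted p = 0.0043), at 961 ± 111 RPKM in scribRES cells, and Gstt2 lower, with a difference of −1.68 (limma adjusted p = 0.00243). The block by experiment, with which 18.5% of all transcripts were called, added Aldh1a1 and both Sult1a1 transcripts to those called as lower.

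Of 29 listed factors known to act on the Abcb1 promoter, only 9 had a name in the files, and the others could not be examined. Among these 9 tested transcripts, 2 were higher, 1 was lower and 6 were not called in scribKD over control, beside 9.97% of all transcripts called. The list median was −0.40, beside 0.02 for all transcripts tested. Ets1 rose by 0.74 on the log2 scale (limma adjusted p = 0.0108), from 26.0 ± 5.83 to 43.4 ± 9.78 RPKM, and was at 29.6 ± 1.72 RPKM in scribRES cells. Fosl1, an AP-1 subunit, rose by 1.01 (limma adjusted p = 0.0138), from 25.5 ± 8.39 to 51.1 ± 14.8 RPKM, and was at 24.8 ± 3.57 RPKM in scribRES cells. Fos, another AP-1 subunit, fell by 1.19 (limma adjusted p = 0.0354), from 302 ± 89.8 to 145 ± 66.6 RPKM, and was at 198 ± 70.9 RPKM in scribRES cells. With the experiment as block, where 15.1% of all transcripts were called, Egr1, an immediate early factor, was called as lower as well. Its log2 difference was −0.55 (limma adjusted p = 0.0208). Fosl1 was the only member of the list called for scribRES over scribKD without a block, where 1.28% of all transcripts were called. It fell by 0.99 (limma adjusted p = 0.049). With the experiment as block, where 9.64% of all transcripts were called, Egr1 and Fos were called as higher and Ets1 and Fosl1 as lower. For scribRES over control none was called without the block, where 7.57% of all transcripts were called. Fos, Junb and Nfyc were called as lower with the block, where 18.5% of all transcripts were called. Their part in the level of Abcb1 was not tested.

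Of 11 listed proteins of the membrane and cytoskeleton that P-glycoprotein is known to work with, 5 had a name in the files. None of these 5 was called for scribKD over control or for scribRES over scribKD. Of all transcripts 9.97% and 1.28% were called in these comparisons. Cav1, the caveolar coat protein, was lower in scribRES cells than in control cells by 0.57 on the log2 scale (limma adjusted p = 0.0131), at 1476 ± 31.3 against 2209.8 ± 313 RPKM. In that comparison 7.57% of all transcripts were called. Of the genes around ABCB1 in the RefSeq gene table of the assembly UU_Cfam_GSD_1.0, only Crot, the carnitine octanoyltransferase of peroxisomes and 2 protein-coding genes away, had a name in the files. Crot rose in scribKD cells from 27.6 ± 3.84 to 39.8 ± 1.92 RPKM, by 0.54 on the log2 scale (limma adjusted p = 0.00188), and stood at 34.0 ± 3.32 RPKM in scribRES cells.

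Kidney epithelium genes with a name moved in the same comparison. Only 7 of 17 markers had a name, and names came mostly from the study's tables of changed genes. The share called among them can therefore not be read against that of all transcripts. Of the 7 named markers 4 were lower in scribKD than in control cells, Cdh16, Cldn2, Krt19 and Pax8. Among the rest 1 was higher, Gata3, and 2 were not called, Cldn1 and Ocln, where 9.97% of all transcripts were called. The list median was −0.57, beside 0.02 for all transcripts tested. Cldn2, a claudin of leaky tight junctions, fell from 179 ± 101 to 43.4 ± 27.9 RPKM, and Cdh16, the kidney cadherin, fell from 3.14 ± 2.49 to 0.656 ± 0.383 RPKM. In scribRES over control, where 7.57% of all transcripts were called, Cldn1 was the only one called without a block, lower by 0.76 (limma adjusted p = 0.00755). With the experiment as block 4 were called as lower, Cdh16 (−2.88), Cldn2 (−2.41), Cldn1 (−0.80) and Pax8 (−0.64), and Gata3 as higher (1.28), where 18.5% of all transcripts were called. For scribRES over scribKD none of 6 tested was called without the block and Cldn1 was called as lower with it (−0.63). Of all transcripts 1.28% and 9.64% were called in these fits. Their part in the differences of Abcb1 was not tested.

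The transcripts whose pattern over the 16 libraries was most like that of AF045016.1 were sought by Pearson's r of log2(RPKM + 0.1) among 13199 transcripts with a mean of at least 1 RPKM. AB066299.1 had r = 0.995, the median transcript r = 0.01, and 74 transcripts were above 0.9. These values are descriptions, since the 16 libraries share 3 populations and 3 experiments. After AB066299.1 the 10 most alike had r from 0.957 to 0.993, and 4 of them have names: Spryd7 (r = 0.980), Mgat4c (0.978), Ccng1 (0.975) and Crot (0.957).

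Ccng1, cyclin G1 and a known target of p53, was the most abundant of the named ones, at 112 ± 18.0 RPKM in control, 267 ± 23.4 in scribKD and 154 ± 11.8 in scribRES cells. Mgat4c, a homologue of an N-glycan branching enzyme, was at 2.61 ± 0.990, 7.92 ± 1.13 and 3.803 ± 1.10 RPKM in the same order. Spryd7 was at 13.4 ± 1.22, 20.7 ± 1.49 and 15.8 ± 1.69 RPKM. The named genes followed Abcb1 in order of the populations but with smaller differences of scribKD from control, 0.54 to 1.64 on the log2 scale against 2.87 for AF045016.1.

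The other 6 of the 10 have no name in the tables used here. For 4 of them the population means matched the Abcb1 entries in size too, at 0.872 to 1.46 RPKM in control, 6.57 to 10.8 in scribKD and 2.03 to 3.55 in scribRES cells. The most alike of all was AF536758.1 (r = 0.993), at 0.872 ± 0.463 RPKM in control, 6.57 ± 1.08 in scribKD and 2.03 ± 1.10 in scribRES cells. Which gene these entries come from was not analysed here, so whether any of them is a further Abcb1 entry is not known. The transcripts with the most opposite pattern included Stat5a (r = −0.961), which stood at 17.3 ± 1.84, 12.04 ± 0.652 and 14.98 ± 0.351 RPKM, and Fgfr2 (r = −0.954), a fibroblast growth factor receptor at 75.8 RPKM in control, 40.8 in scribKD and 68.6 in scribRES cells.

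**Figure D5:**
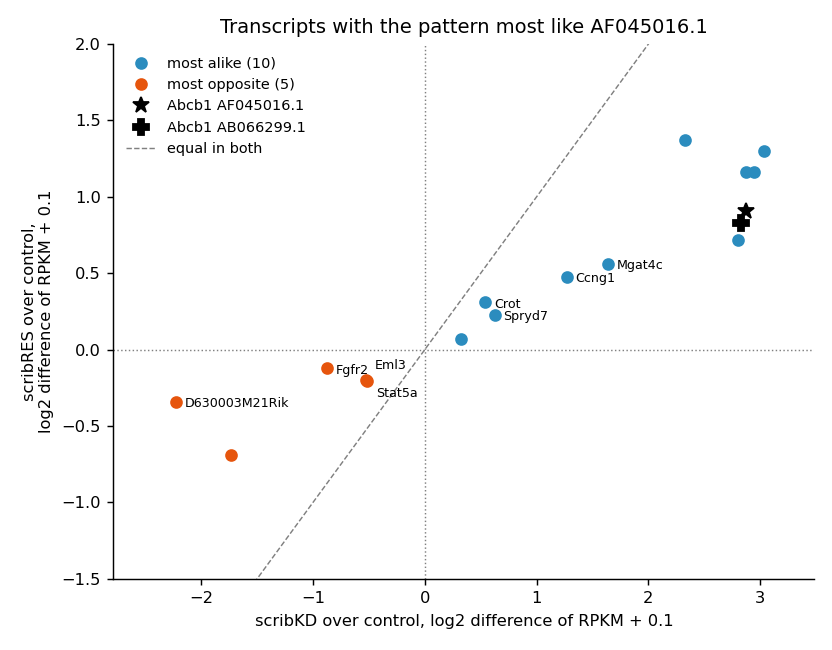
Log2 difference from control of scribRES cells (y axis) against that of scribKD cells (x axis) for the Abcb1 entries, the 10 transcripts most like AF045016.1 over 16 libraries and the 5 most opposite, with names where known and a dashed line where both differences are equal. The Abcb1 entries lie at 2.87 and 2.83 on the x axis and 0.91 and 0.83 on the y axis, among unnamed transcripts and beyond Mgat4c (1.64 and 0.56) and Ccng1 (1.27 and 0.48).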

How the data were processed

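RNA-seq was carried out on 3 populations of MDCK cells, in 17 runs of 16 libraries, all assigned from the labels. Per the study's methods, the authors mapped reads to the dog genome build 3.1 (per the labels with cutadapt 1.0 and TopHat2 2.0.6) with BLAT-placed transcripts as junctions, counted reads per transcript and deposited RPKM; strand and reads matching several transcripts are not given in the sources used here. Whole reads were recovered from the RPKM steps for 18873 transcripts (100% of values whole to within 0.02 reads; 2698 were 0 in all runs). Intervals cover counting error only.

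Each pair of populations was fitted with limma 3.58.1 (R 4.3.3; lmFit, eBayes with trend) on log2(RPKM + 0.1), without a block, since the study's methods name none, for transcripts above 0.5 RPKM in every library of at least 1 population. Fold changes on this scale understate those of low transcripts. Calls needed a Benjamini-Hochberg adjusted p under 0.05 over all transcripts and an absolute log2 difference above 0.5. This replaced the study's filter, which would leave the entries out where both populations are low. Single values were compared by exact two-sided permutation tests. The fits with the experiment as block on experiment means and on experiments 2 and 3 only were chosen after seeing the data. So was the permutation test of scribRES against control with exchanges only within experiments 2 and 3. Scripts were tested on simulated data (Python 3.11.15, numpy 2.4.6, pandas 2.3.3, scipy 1.17.1, matplotlib 3.10.9).

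Same-numbered libraries share an experiment and deviated together in every pair (r 0.339 to 0.744 for scribKD and control, 0.348 to 0.41 for scribRES and scribKD, 0.327 to 0.461 for scribRES and control). Libraries of other experiments averaged −0.318, −0.384 and −0.403. Same-experiment libraries of other numbers averaged 0.677, 0.387 and 0.398, beside 0.603, 0.381 and 0.409 for same-numbered ones. The shared deviation thus went with the experiment, and a pairing by number within an experiment was not shown. The members and the gene lists were chosen with earlier results of these data known. Named genes were every tested list member called without a block, those whose call the block by experiment changed and those a comparison turned on, the 10 transcripts most like AF045016.1 and the 5 most opposite. Fold changes and p-values in the study's own tables were not used.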

Additional observations from a re-analysis of the deposited data

Results flagged for a closer look

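One library stood apart from its population. In scribKD replicate 3 the log2 ratio of AB066299.1 to AF045016.1 was 0.23, above the −0.02 to 0.07 of the other 5 scribKD libraries, and 290 and 303 reads stood behind it. Of 123 sets of libraries examined this way, for the entries, their ratio and the named genes, this was the only one, and chance alone gives about 1 in 20.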

How the results depend on the processing

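Reads limit Abcb1 most in control cells of experiment 3, with 21 to 28 per entry. With a pseudocount of 1 the log2 difference of scribKD from control was 2.15 for AF045016.1 and 2.15 for AB066299.1; it moved less than the SD between libraries under the other alternatives, and that of scribRES from scribKD did so under all, with ranges when 1 library was left out of 2.65 to 3.02, 2.64 to 2.99, −2.17 to −1.72 and −2.16 to −1.80.

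For scribRES over control the entries changed call only with a replicate block: 1.25 and 1.19 by number, by experiment, and by experiment with experiments 2 and 3 only (limma adjusted p = 0.000819 and 0.00108), and combined with the block by experiment, both pseudocounts, median-ratio scaling, no filter, no trend, limma-voom and leaving out each library, added after seeing the data, kept the call. On experiment means it was not called, with the block (1.25 and 1.19) or without it. Without a block the difference was 0.69 to 1.16 and 0.64 to 1.03 when 1 library was left out, never called. In experiments 2 and 3 alone the exact permutation p was 0.114 for AF045016.1 at a difference of 1.25. For AB066299.1 it was 0.0286 at a difference of 1.19, the smallest possible, and 0.0571 after Benjamini-Hochberg adjustment over the 2 entries. A limit of 5 RPKM with replicates within 2-fold, used here in place of the study's limit on CPM, left both entries untested in this comparison.

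The block by experiment called 2023 transcripts for scribKD over control (2102 in experiments 2 and 3 only), 1298 for scribRES over scribKD (1272) and 2491 for scribRES over control (2450), against 1332, 172 and 1021 without it. The block by replicate number called 525 and 1733 in the last pair of comparisons, and experiments 2 and 3 without a block called 339 for scribRES over scribKD. With experiment means limma called 11, 0 and 0 transcripts, with 1866, 572 and 1311 at an unadjusted p under 0.05, and together with the block by experiment 1852, 0 and 0, with 5344, 1521 and 2099. Leaving out 1 library gave 1103 to 1428, 49 to 242 and 494 to 1218 calls; scribRES over control fell to 494 and 495 without scribRES replicate 3 or 4, and scribRES over scribKD to 49 to 82 without any scribRES library or without scribKD replicate 2, 3, 4 or 5.

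The difference in entry ratio between scribRES and scribKD, not significant in any alternative, ran from −0.0794 to 0.0318 with 1 library left out. The lower level in experiment 3 kept its direction and exact permutation p under 0.05 in all 15 alternatives for each entry, and the block changed no call of the entry ratio.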
